A study of Mus musculus with 5 samples.

Results

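Ebf1, Ebf2, Ebf3 and Ebf4 are the 4 mouse genes of the early B-cell factor family, and they were taken by symbol from 21521 protein-coding genes of the RefSeq annotation of GRCm38. EBF1 sites centred inside one of these genes or within 100 kb of its ends were collected, which gave 10 of the 7494 sites in the list. Each site is 300 bp wide and is described by its centre. The list came from ChIP-seq, in which DNA fragments bound by a protein are precipitated with an antibody and sequenced, here with an antibody against EBF1 in pro-B cells, which are precursors on the way to B lymphocytes.

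The cells started as Ebf1-/- fetal liver cells, and transduction supplied EBF1 wt in some groups and an EBF1 variant labelled YmA in the others, so every group lacked a working endogenous Ebf1 gene and carried a transferred one. The 5 libraries comprised ChIP for EBF1 in EBF1 wt cells and in YmA cells, ChIP for BRG1, the ATPase of the BAF chromatin remodeller, in YmA cells, and an input for each antibody from cells labelled EBF1 wt. Of these, 1 library, the ChIP for EBF1 in EBF1 wt cells, was analysed here. There was no replicate and no comparison between groups, and all values below describe 1 list. The list gives no height, score or depth for a site, so the absence of a site cannot be read as absence of binding. It holds no expression values, so the cell type was not checked against its marker genes. Each site carries a class from the authors, YmA-dep, YmA-ind or CTD-ind, and the sources used here do not give how the classes were made.

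EBF proteins bind DNA as dimers, through a zinc-coordinating DNA-binding domain, an IPT domain of immunoglobulin-like fold and a helix-loop-helix dimerization region, and they recognise a palindrome. EBF1 specifies the B-cell lineage together with E2A, FOXO1 and PAX5, and the mouse Ebf1 gene is known to be activated in part by its own product. Its paralogs are known mainly outside the B lineage. EBF2 is known for brown adipocyte and neural development, EBF3 for neurons and for stromal cells of the bone marrow, and EBF4 is the least studied of the 4.

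The RefSeq promoter table of GRCm38.p6 gave windows of 300 bases, from 250 bases before a listed gene start to 50 after it, for Ebf1 (2 windows), Ebf3 and Ebf4. They are shown because the question at these genes is where EBF1 sites lie relative to the starts, and capitals mark the only match to the looser of 2 forms of the EBF motif, CCC and GGG separated by any 2 bases.
Ebf1, first listed start, chr11:44617850-44618149, plus strand: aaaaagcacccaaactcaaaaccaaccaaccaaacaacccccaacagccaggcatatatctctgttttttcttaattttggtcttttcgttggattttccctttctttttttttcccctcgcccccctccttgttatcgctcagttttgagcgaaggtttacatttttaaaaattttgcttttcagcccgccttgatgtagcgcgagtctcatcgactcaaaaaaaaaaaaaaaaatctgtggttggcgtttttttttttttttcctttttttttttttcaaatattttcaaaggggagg
Ebf1, second listed start, chr11:44619978-44620277, plus strand: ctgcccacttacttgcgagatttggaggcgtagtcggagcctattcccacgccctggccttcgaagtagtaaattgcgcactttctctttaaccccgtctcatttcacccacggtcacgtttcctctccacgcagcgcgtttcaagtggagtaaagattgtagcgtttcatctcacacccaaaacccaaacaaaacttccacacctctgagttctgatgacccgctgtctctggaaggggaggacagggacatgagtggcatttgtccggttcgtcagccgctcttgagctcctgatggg
Ebf3, chr7:137314396-137314695, minus strand: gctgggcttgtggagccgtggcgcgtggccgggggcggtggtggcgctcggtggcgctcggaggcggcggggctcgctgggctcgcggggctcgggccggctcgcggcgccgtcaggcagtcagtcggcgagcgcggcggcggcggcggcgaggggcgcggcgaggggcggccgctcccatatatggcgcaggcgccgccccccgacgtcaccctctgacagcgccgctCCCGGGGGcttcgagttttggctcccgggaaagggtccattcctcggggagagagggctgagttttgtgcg
Ebf4, chr2:130295689-130295988, plus strand: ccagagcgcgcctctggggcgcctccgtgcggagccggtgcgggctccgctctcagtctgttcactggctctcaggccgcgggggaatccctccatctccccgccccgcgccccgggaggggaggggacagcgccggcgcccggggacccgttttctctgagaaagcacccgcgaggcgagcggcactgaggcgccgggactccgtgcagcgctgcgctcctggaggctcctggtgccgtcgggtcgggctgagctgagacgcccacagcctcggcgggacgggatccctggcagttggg

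None of these 4 windows was overlapped by an EBF1 site, and none held the strict form, TCCC and GGGA separated by any 2 bases. At least 1 promoter window overlapped by a site was found at 3.10% of protein-coding genes with a window. A match to the strict form was in 0.907% of all windows and a match to the looser form in 13.8%, so the lack of matches was the usual case. Both forms are palindromes, so a match on one strand is a match on the other, and every strict match contains a looser one. The match in the Ebf3 window began 21 bases before the listed start. The first Ebf1 window was poor in G and C (36.7%, with a lower share in 5.29% of all windows) and held a run of 15 T. The second Ebf1 window was at 53.0%, and those of Ebf3 and Ebf4 were at 77.0% and 74.3%, against a median of 53.0% over all windows. The family thus differed in the base composition around its starts, with Ebf3 and Ebf4 among the most GC-rich windows.

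The 4 genes differed widely in their number of sites. Ebf1, the B-lineage member, had 7 sites within 100 kb, Ebf4 had 2, Ebf3 had 1 and Ebf2 had 0. A site was thus found at 3 of 4 genes, against 53.4% of all protein-coding genes, and 3 genes are too few to set apart from that share. The genes differed more in the number of sites. At least 7 sites within 100 kb were counted at 3.06% of protein-coding genes (658 of 21521), and 96.9% had fewer. At least 2 sites, the number at Ebf4, were counted at 34.1%. Narrower windows thinned the family, with a site inside at Ebf1 and Ebf4 (13.1% of protein-coding genes), and at the same 2 genes within 10 kb (22.3%) and within 50 kb (41.0%). Within 200 kb, Ebf1 had 11 sites, Ebf4 3, Ebf3 1 and Ebf2 0, where 66.0% of protein-coding genes had at least 1.

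**Figure D1:**
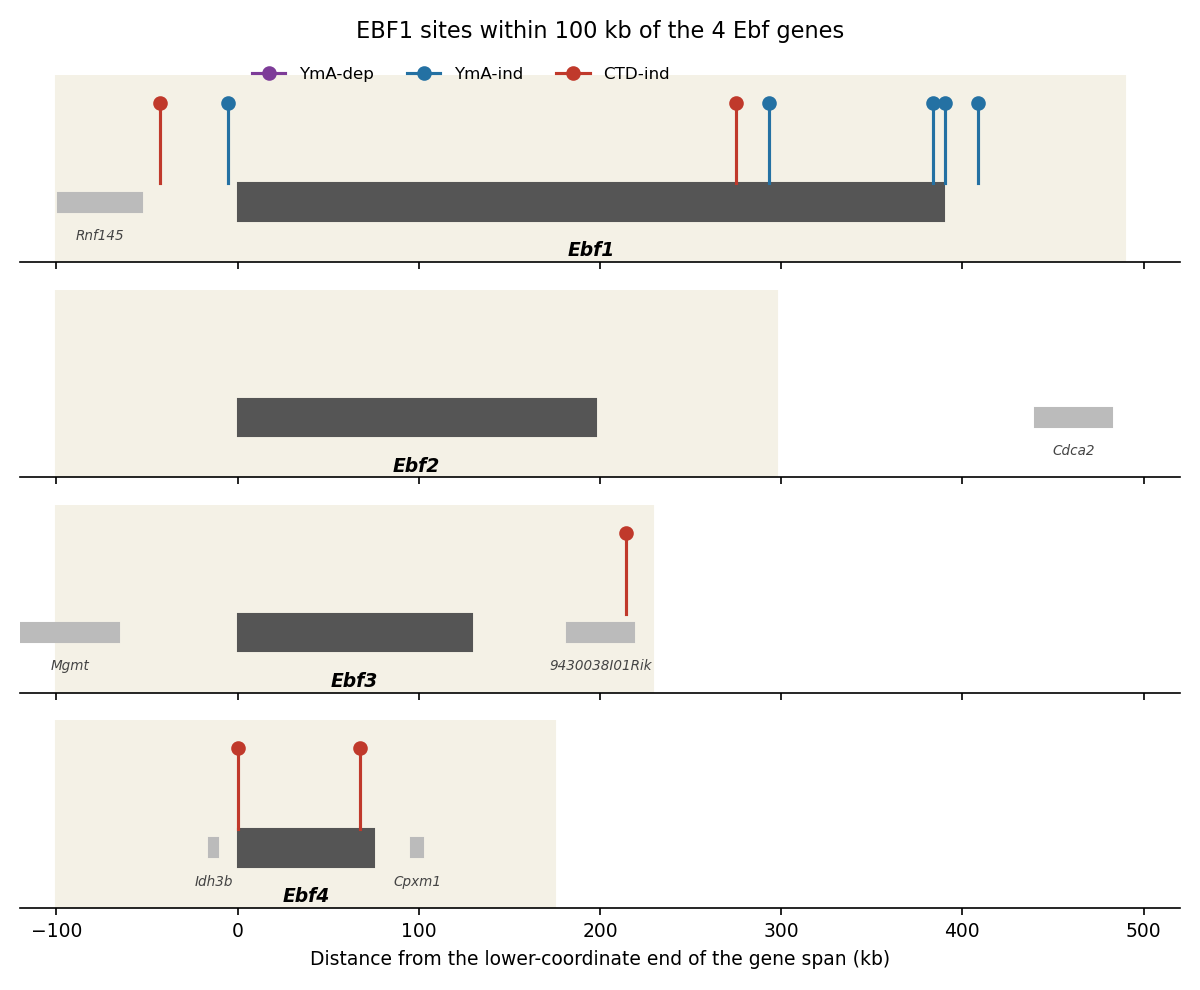
Map of the 4 Ebf genes, each drawn to the same scale in kb from the lower-coordinate end of its span. Dark bars are the Ebf genes, grey bars the nearest protein-coding neighbours (cut at the edge of the panel), the shaded area is the gene with 100 kb on either side, and pins are EBF1 site centres coloured by class. Ebf1 carried 7 sites, 5 of them from its distal part onward, Ebf2 none, Ebf3 1 inside a neighbouring gene and Ebf4 2 inside the gene, and no pin is YmA-dep.

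A long gene has more room for sites, and the Ebf genes are long. Ebf1 spans 390 kb on chromosome 11 (44618100 to 45008096), Ebf2 198 kb on chromosome 14 (67233292 to 67430952), Ebf3 129 kb on chromosome 7 (137193671 to 137322805) and Ebf4 75.4 kb on chromosome 2 (130295126 to 130370482), against a median of 17.4 kb over protein-coding genes. Ebf1 was therefore set beside the 525 other protein-coding genes whose span lay within 1.5 times its own, from 260 to 585 kb. Of these, 26 (4.95%) had at least 7 sites within 100 kb, 46.7% had any, and the median was 0. Its 3 sites inside the gene were matched or exceeded by 51 of the 525 (9.71%), and by 1.51% of all protein-coding genes. Genes of this length carried few sites as a rule, and Ebf1 was in the upper tail of their counts.

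The paralogs stood nearer the middle of genes of like span within 100 kb. For Ebf4 the 2 sites within 100 kb were reached by 1016 of 2836 genes (35.8%), and 57.7% of those 2836 had any. Its 2 sites inside the gene were reached by 228 of them (8.04%), and by 3.70% of all protein-coding genes, so Ebf4 stood higher by its inside sites. That standing rests on the annotated edge. One of the 2 sites was centred 119 bp inside it and 694 bp upstream of the listed start. At least 1 site inside was found at 24.2% of the 2836 genes. For Ebf3 the single site was reached by 1029 of 1875 genes (54.9%). For Ebf2, 555 of 1139 genes (48.7%) also had 0 sites and 51.3% had at least 1. Having no site was therefore common at the length of Ebf2.

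**Figure D2:**
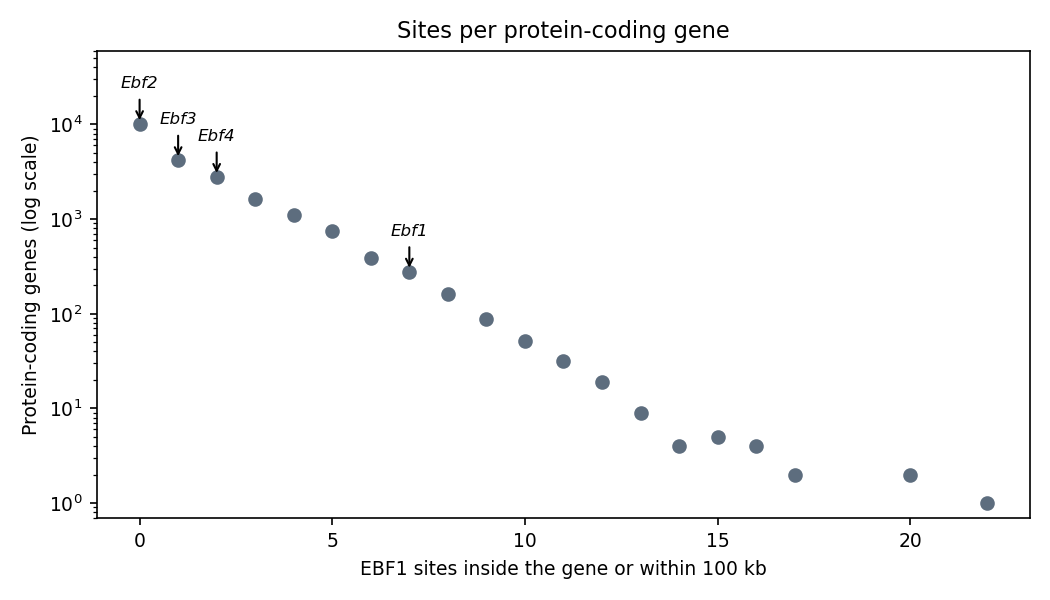
Number of protein-coding genes (y axis, log scale) with each number of EBF1 sites inside the gene or within 100 kb (x axis), with the 4 Ebf genes marked by arrows. Ebf2, Ebf3 and Ebf4 sit at 0, 1 and 2 sites, where most genes are, and Ebf1 sits at 7, which 3.06% of genes reach.

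Density gave the same order of genes. The Ebf1 window, the gene with 100 kb on either side, held 11.9 sites per Mb, against 5.45 per Mb on chromosome 11. The Ebf4 window held 7.26 per Mb, against 3.50 on chromosome 2. The Ebf3 window held 3.04, against 3.68 on chromosome 7. The Ebf2 window held none, against 2.23 on chromosome 14. With single digits of sites per window, these densities rest on few sites, and no test was made of them.

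The 7 sites of Ebf1 fell into an upstream pair and a distal group of 5. Ebf1 lies on the plus strand, and its RefSeq starts are at 44618100 and 44620228, which are 2128 bp apart. The site farthest upstream (chr11:44574935-44575234, CTD-ind) was centred 43.0 kb before the first start. It lay closer to Rnf145, which encodes a ubiquitin ligase, at 9.56 kb from that gene. The second upstream site (chr11:44612355-44612654, YmA-ind) was centred 5.60 kb before the first start and 7.72 kb before the second, and 47.0 kb from Rnf145. It was the site nearest to a start of Ebf1. A site within 1 kb of a listed start was found at 5.73% of protein-coding genes with one, and within 10 kb at 14.1%. Ebf1 belonged to the second group and not to the first. Mouse Ebf1 is known to have a distal and a proximal promoter, and whether the 2 listed starts are those promoters was not determined here.

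Inside Ebf1, the proximal part of the gene had no site. The first 275 kb of the span were empty, and the nearest upstream site and the first inside site were 281 kb apart. Of all 7474 gaps between neighbouring sites, 20.9% were at least as long, so a gap of this length was not rare. The first inside site (chr11:44893150-44893449, CTD-ind) was at 70.6% of the gene's length from its start. The next (chr11:44911357-44911656, YmA-ind) followed 18.2 kb later, at 75.2%. The last inside site (chr11:45002027-45002326, YmA-ind) was at 98.5%, 5.92 kb before the end of the gene. It lay 90.7 kb beyond the site before it, more than the median gap of 60.9 kb between neighbouring sites. All 3 inside sites thus lay in the distal part. The cells were Ebf1-/-, and whether any sequence is missing from their own Ebf1 gene was not tested, so these positions describe the reference gene.

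For a description of other genes, the position of the first inside site of Ebf1 was used as the limit, so the limit itself comes from Ebf1, and no test was made. Of 3394 sites inside other protein-coding genes with a strand in the promoter table, 24.0% lay at 70.6% of the gene's length or beyond, and 22.5% lay in the first 10%. In genes of a span like Ebf1 these shares were 35.7% and 14.2% of 339 sites. Of the 42 such genes with a strand and at least 3 sites inside, 3 (7.14%) had all of them at 70.6% or beyond, as Ebf1 had.

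The distal group of Ebf1 went on past the gene's end. A YmA-ind site (chr11:45008102-45008401) began just outside the span and was centred 155 bp beyond it, 6.08 kb from the last inside site. The last of the group (chr11:45026552-45026851, YmA-ind) was centred 18.6 kb beyond the end. From the first inside site to this one, 5 sites stretched over 133 kb, with the gap of 90.7 kb among them, so they were not 1 tight cluster. No other protein-coding gene lay near them. The next one on that side, Clint1, which encodes a clathrin adaptor, began 844 kb beyond Ebf1, and the long non-coding RNA gene Gm51859 began 80.5 kb beyond it. Rnf145 was the only other protein-coding gene to reach into the Ebf1 window. Exon positions were not used here. Whether reads from the transferred EBF1 coding sequence reached the sites at the end of Ebf1 was not tested.

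Other genes with the same counts as Ebf1, 3 sites inside and 7 within 100 kb, numbered 16. Those closest to it in span were Dscaml1 (326 kb), Ripor2 (232 kb), Cradd (149 kb), Ankrd6 (147 kb) and 3110082I17Rik (101 kb). All 5 were shorter than Ebf1, and Ripor2 and 3110082I17Rik had the same classes, 5 YmA-ind and 2 CTD-ind sites. The 5 genes closest to Ebf1 in span alone looked unlike it. Myo3b, Myo3a and Palld had 0 sites within 100 kb, and Stard13 and Fmn1 had 1 CTD-ind site each.

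Ebf4 was the only paralog with sites inside the gene. The first (chr2:130295096-130295395, CTD-ind) covered the edge of the annotated span, with 270 of its 300 bases inside and its centre 119 bp in. The start listed in the promoter table is farther in, at 130295939, so the site centre was 694 bp upstream of that start and the site ended 293 bp before the printed window. Ebf4 was thus among the 5.73% of protein-coding genes with a site centred within 1 kb of a listed start. The neighbouring gene Idh3b, which encodes a subunit of isocitrate dehydrogenase, was 10.8 kb away.

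The second Ebf4 site (chr2:130362731-130363030, CTD-ind) was at 89.9% of the gene's length, 7.60 kb before its end. It was 67.6 kb from the first site and 27.9 kb from Cpxm1, which encodes a carboxypeptidase-like protein. It thus stood just short of the last 10% of its gene, in which the last inside site of Ebf1 lay. As a background for that Ebf1 site, sites of other genes fell in the last 10% in 8.34% of cases, and in 12.4% in genes of a span like Ebf1. These shares are no background for the Ebf4 site, which lay outside the last 10% of a gene of 75.4 kb. Ebf4 has many neighbours, with 9 other protein-coding genes reaching into its window, but all sites in that window lay inside Ebf4.

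Ebf3 had no site inside the gene. Its only site within 100 kb (chr7:137407734-137408033, CTD-ind) lay inside the protein-coding gene 9430038I01Rik, 4359 bp from that gene's nearer end. This was 85.1 kb beyond the span and 93.4 kb upstream of the listed start of Ebf3, which is on the minus strand. With 50 kb on either side Ebf3 had 0 sites. On the other side the nearest site lay 1530 kb away inside Ptpre, which encodes a receptor tyrosine phosphatase. The empty stretch across Ebf3 measured 1740 kb, and 4.7% of all gaps between neighbouring sites were at least as long. That share counts each gap once, whereas long gaps cover more of the genome. A given position therefore falls in such a gap more often than the share gives. This stretch also took in Mgmt, a DNA repair gene 65.5 kb from Ebf3, which had 0 sites within 100 kb.

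Ebf2 had no site within 200 kb. The nearest were a YmA-ind site 301 kb away inside Kctd9 (chr14:67731540-67731839) and a YmA-ind site 428 kb away inside Dpysl2 (chr14:66805505-66805804), a gene of axon guidance. The empty stretch across Ebf2 measured 926 kb, and 8.5% of all gaps between neighbouring sites were at least as long. As for Ebf3, this is a share by count, and a given position falls in so long a gap more often than that. The nearest protein-coding neighbours of Ebf2 are Ppp2r2a, a regulatory subunit of protein phosphatase 2A, at 161 kb, and Cdca2, a regulator of mitotic chromatin, at 242 kb. They had 0 and 1 sites within 100 kb.

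The sites of the family were of the classes YmA-ind and CTD-ind. Ebf1 had 5 YmA-ind and 2 CTD-ind sites, while the 3 sites of Ebf3 and Ebf4 were CTD-ind. By gene, 3 of the 4 had a CTD-ind site within 100 kb (33.2% of protein-coding genes), 1 a YmA-ind site (39.8%) and 0 a YmA-dep site (11.6%). Over the 10 sites, 5 were YmA-ind (50.0%, exact 95% binomial interval 18.7 to 81.3%) and 5 CTD-ind, against 54.1% and 34.0% of all 7494 sites. YmA-dep sites numbered 0 of 10, which allows a share of up to 30.0% by 3 counts of the total and 30.8% by the exact interval, against 11.9% of all sites, so a shortage of this class was not detectable with 10 sites. Among the 277 genes with exactly 7 sites within 100 kb, Ebf1 included, 53.8% had no YmA-dep site and 24.9% had at least 5 YmA-ind sites. Neither feature was rare for a gene with that many sites.

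How often the EBF motif marks a site was asked in promoter windows, where sequence was at hand. Of the 680 windows overlapped by a site, 11.2% held the strict motif (exact 95% interval 8.91 to 13.8%), against 0.689% of the 31939 windows not overlapped and 0.907% of all windows. For the looser motif the shares were 46.3%, 13.1% and 13.8%. Windows overlapped by a CTD-ind site held the strict motif in 13.4% of cases (10.5 to 16.8%) and those overlapped by a YmA-ind site in 6.01% (3.04 to 10.5%). The 14 windows overlapped by a YmA-dep site held it in 0 cases (interval up to 23.2%). GC content moved with this, at a median of 61.7% in overlapped windows and 52.7% in the others, and at 64.2% for CTD-ind, 57.0% for YmA-ind and 55.2% for YmA-dep windows, and its part in the motif shares was not tested. The Ebf1 and Ebf4 windows fell in the large group with no site and no match, and the Ebf3 window held the looser motif with no site. A gene can have more than 1 window, as Ebf1 does, and close windows can share a site or a match. The intervals treat each window as separate and may therefore be too narrow.

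**Figure D3:**
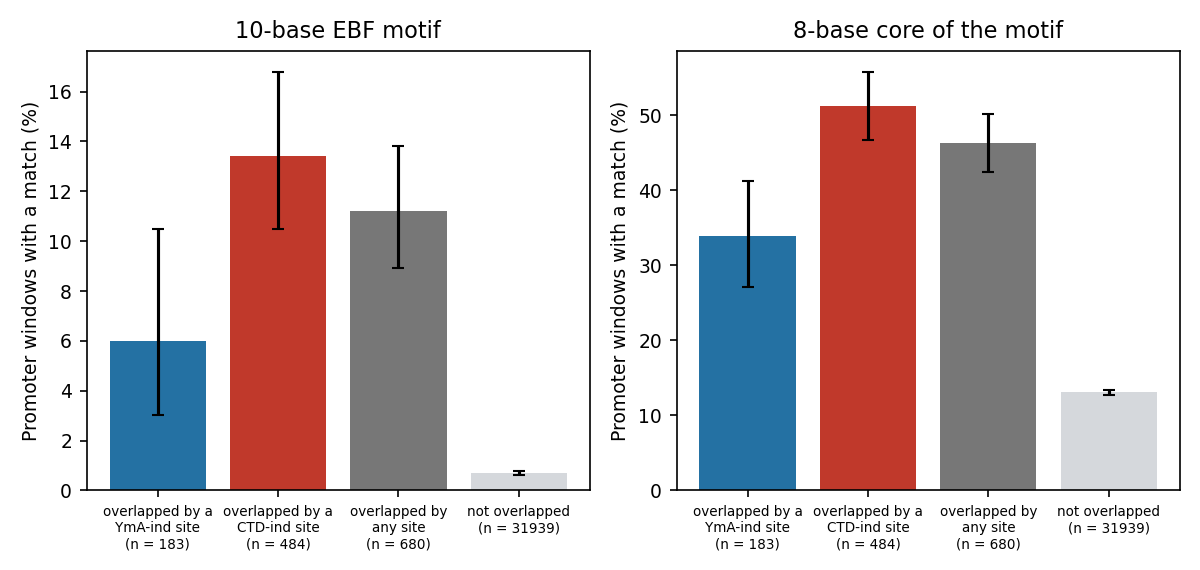
Share of promoter windows (y axis, percent) that hold the strict 10-base EBF motif (left) or its looser 8-base core (right), for windows overlapped by an EBF1 site of a class or of any class and for windows not overlapped. Error bars are exact 95% binomial intervals that treat each window as separate, though close windows can share a site. The strict motif was in 11.2% of overlapped and 0.689% of other windows. The 4 Ebf windows belong to the last bar.

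Genes related to the Ebf family, by known action or only by protein fold, were examined as 4 lists of 41 genes in all. These lists were chosen with earlier results of these data known. The background of all protein-coding genes was not matched to them in span. Their shares are therefore a description, and enrichment was not tested. The first list held 12 genes of factors and signals that act upstream of Ebf1. All 12 had a site within 100 kb, with a median of 5 sites, against 53.4% and a median of 1 over protein-coding genes. Foxo1 and Stat5b had 10 sites each, Ets1 and Stat5a had 8, Tcf3, which encodes the E proteins of E2A, had 7, and Pax5 had 6. Stat5a and Stat5b adjoin each other, so their windows share sites. Within 10 kb, 8 of the 12 had a site, against 22.3% of protein-coding genes. At the low end, Cbfb had 2 sites within 100 kb and Ikzf1, Il7r and Tcf12 had 1 each, with 0 within 10 kb. Ebf1, with 7 sites within 100 kb and 5 within 10 kb, stood in the wide range of the 12 genes, 1 to 10 within 100 kb.

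Of 9 genes of proteins known to work with EBF1, 7 had a site within 100 kb and 5 within 10 kb, against 53.4% and 22.3% of protein-coding genes. Ewsr1, which encodes an RNA-binding protein, had 9 within 100 kb but 0 within 10 kb. Pax5 had 6, Chd4 and Runx1 had 4 each, and Smarca4, the gene of BRG1, had 3. Zfp423, an EBF-binding zinc finger gene, also had 3, all inside the gene, while its relative Zfp521 and Tet2 had 0.

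The IPT domain relates EBF proteins to a wider group, from which 14 genes of NF-kB, NFAT, RBPJ and CAMTA factors were taken. A site within 100 kb was found at 13 of the 14, with a median of 3.5 sites, against 53.4% and a median of 1 over protein-coding genes. Within 10 kb 9 had a site, against 22.3%. Nfatc1 and Rbpjl had 7 sites each, as many as Ebf1, Nfatc2 had 5, and Nfatc3, Nfatc4, Nfkb2 and Rela had 4. Only Rbpj of the 14 had 0. Within 10 kb, Nfatc4, Nfkb2, Camta2, Rel and Rbpj had none.

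The last list held 8 adipocyte genes linked to EBF2. Of these, 5 had a site within 100 kb and 2 within 10 kb, against 53.4% and 22.3% of protein-coding genes. Cebpb had 8 sites, Pparg 4, Cidea 3, Ucp1 2 and Dio2 1, and those within 10 kb were at Cebpb and Cidea. Prdm16, Ppargc1a and Cebpa had 0, as Ebf2 did. The share of genes with a site in this list was near the background.

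**Figure D4:**
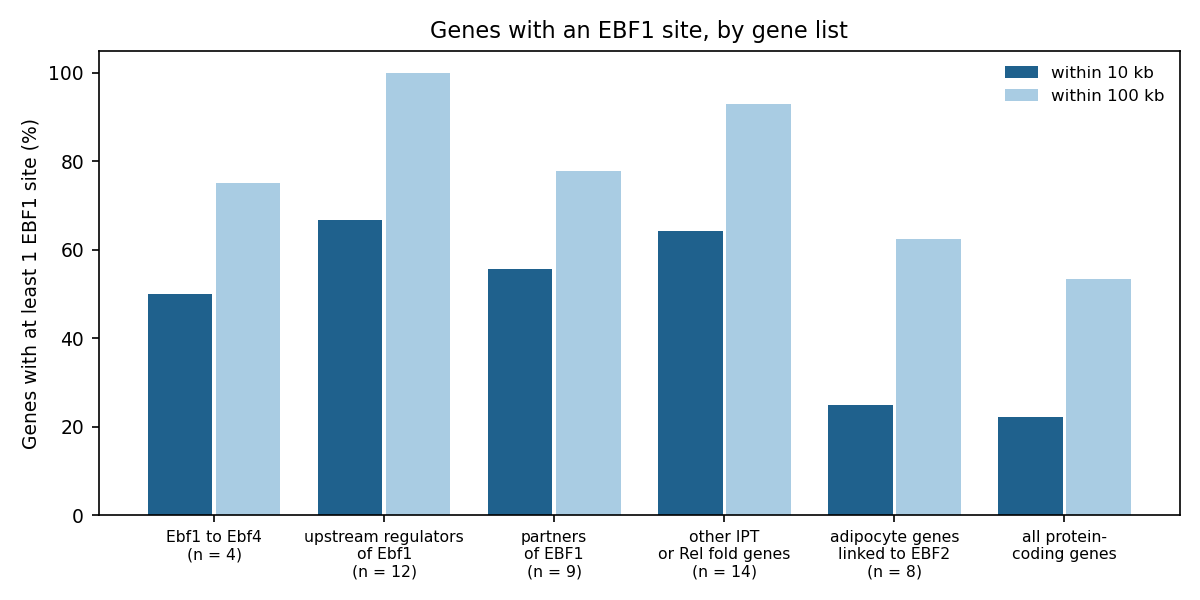
Share of genes (y axis, percent) with at least 1 EBF1 site within 10 kb (dark) or 100 kb (light), for Ebf1 to Ebf4, for the 4 related lists and, at the right, for all protein-coding genes; n is the number of genes, and Pax5 and Runx1 are in both the upstream and the partner list. The upstream list reached 100% within 100 kb, and the adipocyte list was at 62.5%, against 53.4% of all protein-coding genes. The lists were chosen with earlier results of these data known, and the background was not matched in span.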

How the data were processed

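The deposited file for the wild-type EBF1 library lists 7494 site positions on 20 chromosomes in bp and, per the file headers, a deepTools group for each; no other unit is given. Bowtie2, SAMtools and deepTools with GRCm38 (mm10) were used by the authors, per the submitters' processing notes. The sources used here do not give the peak caller, its threshold, the step that set all widths to 300 bp or the read depth. They also do not say how reads of the transferred EBF1 were treated, which could affect sites at Ebf1.

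Genes came from the RefSeq table of GRCm38.p6 (49997 rows). Those on Y, on the mitochondrial genome, of unknown place or on scaffolds (345 on scaffolds) were left out, which kept 49209. All 4 members and all 41 list genes matched by symbol. A site belonged to a gene when its centre lay in the span or within 100 kb, so that a site can count for several genes. Positions are 1-based. Strand and starts came from the RefSeq promoter table of the same build, in which 17274 protein-coding genes were matched; Ebf2 was not among them. Motifs were found as exact matches to TCCC and GGGA (strict) or CCC and GGG (looser) separated by any 2 bases.

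Named genes were the members, their nearest protein-coding neighbours, up to 6 genes with a site per list, and the 5 nearest to Ebf1 in span or in pattern. Rela, list genes without a site or without one within 10 kb, the genes that hold outlying sites and Gm51859 were named after their values were seen. The members and lists were chosen with earlier results of these data known. A further gene of the list of EBF1 partners is not reported here. With 1 library no test was made, and intervals are exact (Clopper-Pearson) and cover counting error only. Counting was tested on simulated sites. Python 3.11.15, pandas 2.3.3, NumPy 2.4.6, SciPy 1.17.1 and Matplotlib 3.10.9 were used.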

Additional observations from a re-analysis of the deposited data

How the results depend on the processing

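Across 36 values, 116 of 140 alternative values stayed within the exact binomial interval of the main value (for list counts, within 1.5 times), and 24 moved. Wide intervals at low counts make this a weak check. A count of 0 also cannot rise in a narrower window, so such counts could not move there. Distances have no such interval, and the 7 that changed all counted as moved. Ebf1 had 3 sites inside the gene, 5 within 10 kb, 7 within 50 kb and 11 within 200 kb, and 6 when a site counted only for the gene that held it or lay nearest. Ebf2 had 0 and Ebf4 at least 2 under each of these. Ebf3, and its CTD-ind count, went to 0 inside the gene, within 10 kb, within 50 kb and when only the containing or nearest gene counted, since its site is 85.1 kb away inside another gene. The share of protein-coding genes with a site was 13.1% inside, 22.3% within 10 kb, 41.0% within 50 kb and 66.0% within 200 kb, and 44.0% of all annotated genes within 100 kb had one. The looser motif was in 13.8% of promoter windows. By containing or nearest gene, 8 of 14 IPT or Rel fold genes (57.1%) and 3 of 8 adipocyte genes (37.5%) had a site. The share of all protein-coding genes under that rule is not given here, so these counts have no background. Within 10 kb, 2 of 8 adipocyte genes (25.0%) had a site, against 22.3% of protein-coding genes. With neighbours of any type, 7 sites had a nearer neighbour, from 15.6 to 195 kb away. These moves follow from the wider or narrower windows, gene sets and motif counted. Counting overlap in place of centres, or 1 site per run under 1 kb, left the counts of the 4 genes unchanged. The motif search in the sites themselves was not run, because sequence of the sites was not used here. Read depth is unknown. No paired analysis was possible because 1 library was analysed.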

Other observations

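Just outside the window of Ebf1, 4 further sites lay upstream between 100 and 200 kb from the gene, and none lay on the other side. A pair of them, YmA-ind (chr11:44493526-44493825) and CTD-ind (chr11:44496264-44496563), stood 124 and 122 kb away between Ublcp1 and Rnf145. A CTD-ind site (chr11:44470162-44470461) lay 148 kb away inside Ublcp1, which encodes a proteasome phosphatase, 402 bp from its end, and a YmA-ind site (chr11:44428005-44428304) lay 190 kb away. At Ebf4, the next site was YmA-ind, 141 kb beyond the gene inside Ptpra (chr2:130511720-130512019).

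Other families with members active in B-cell development, looked at after the counts of the Ebf genes were known, also differed from gene to gene within 100 kb. In the Pax family, Pax5 had 6 sites, Pax7 had 2, Pax2 and Pax8 had 1 each, and Pax1, Pax3, Pax4, Pax6 and Pax9 had 0. In the Ikaros family, Ikzf3 had 5 sites, Ikzf4 had 3, Ikzf1 had 1, and Ikzf2 and Ikzf5 had 0. In the Foxo family, Foxo1 had 10, Foxo6 had 5, Foxo3 had 4 and Foxo4 had 1. A site within 100 kb was thus found at 4 of 9 Pax, 3 of 5 Ikaros and 4 of 4 Foxo genes, against 53.4% of all protein-coding genes. The Pax and Ikaros shares, 44.4% and 60.0%, were near that background. These are counts in 1 list, and no test was made of them.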
